A study of Mus musculus with 12 samples.

Results

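The genes described here encode the proteins of the mitochondrial ribosome. They were taken from the count table by symbol, as every row whose name begins with Mrpl or Mrps followed by a digit, which gave 78 of the 16411 genes listed. Of these, 49 carried an Mrpl symbol, for the large subunit, and 29 an Mrps symbol, in most cases for the small subunit. Among the latter, Mrps18a and Mrps30 belong to the large subunit and Mrps36 to another complex. All 78 passed the filter on low counts in both comparisons made below.

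Mitochondria carry their own ribosome, which translates the few proteins still encoded by mitochondrial DNA, all of them subunits of the respiratory chain complexes and of ATP synthase. Its ribosomal RNAs come from mitochondrial DNA, whereas its proteins are encoded in the nucleus, made in the cytosol and imported. Some of these proteins descend from the ribosome of the bacterial ancestor and others were added in the course of mitochondrial evolution.

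Bulk RNA was sequenced from 12 samples, 6 of them mammary tumors and 6 benign mammary tissue. All mice were heterozygous MMTV-Neu-NDL-YD5 transgenic females on an FVB background, in which the mouse mammary tumor virus promoter drives an activated HER2 (Neu) in the mammary epithelium, so the benign tissue carried the transgene as well. No treatment is named for any mouse, the mice were young adults when watched for tumors, and the age of each at sampling is not given in the sources used here. Benign tissue was mammary tissue with no visible tumor, taken far from tumor sites, and it came from other mice than the tumors that were sequenced.

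Total counts ranged from 5240853 to 8588567 per sample. Levels are given as CPM, counts scaled by TMM to the same library total over the genes tested. Erbb2, the mouse gene for HER2, ran from 44.8 to 73.7 CPM in benign tissue and from 1989 to 16634 CPM in tumors. Benign samples 3, 4 and 6 held much skeletal muscle RNA: 16 muscle markers summed to between 39796 and 101446 CPM there, against 62.6 to 430 CPM in benign samples 1, 2 and 5 and 13.0 to 184 CPM in tumors. From 0 to 9 of the 16 markers were at 0 in a tumor and at most 1 in a benign sample. Ucp1, the uncoupling protein of brown fat, ranged from 41.0 to 1434 CPM in benign samples 3, 4 and 6 and from 0 to 10.4 CPM in the other benign samples, and was at 0 in every tumor except tumor 5 (6.91 CPM). With Ucp1, 8 brown fat markers summed to 246 to 3209 CPM in benign samples 3, 4 and 6. They summed to 45.6 to 158 CPM in benign samples 1, 2 and 5 and to 33.9 to 92.8 CPM in tumors, with overlap. Of the 6 brown fat markers tested, 4 fell and 1 rose against all benign samples, and 2 fell and 1 rose against benign samples 1, 2 and 5. The 8 adipocyte markers summed to 8620 to 20835 CPM in benign tissue and 29.7 to 137 CPM in tumors, with none at 0. The 10 epithelial markers, of which 8 rose and 1 fell, summed to 1286 to 3383 CPM in benign tissue and 5045 to 18788 CPM in tumors. Tumors were therefore compared with all 6 benign samples and again with benign samples 1, 2 and 5 alone.

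Before the expression values, the promoters of 7 members are shown, because the start regions of many mitochondrial ribosomal protein genes are compact and rich in the letters of a few factor binding motifs. RefSeq promoter windows on GRCm38.p6, from 250 bases before to 50 after a start, were at hand for 69 of the 78 members. The windows were searched on both strands for the palindromic NRF1 motif (GCGCA followed by its reverse complement), CCGGAAG (the ETS family, which includes GABPA), AAGATGGCG (YY1) and TCAAGGTCA (estrogen-related receptors). The ETS and YY1 letters can share AAG where they adjoin. Each sequence below holds the 130 bases before the start, 5′ to 3′ on the strand of the gene, with a full match to a searched motif in capitals.
Mrpl9: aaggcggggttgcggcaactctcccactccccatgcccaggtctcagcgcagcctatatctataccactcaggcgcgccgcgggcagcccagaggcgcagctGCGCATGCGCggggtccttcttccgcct
Mrpl32: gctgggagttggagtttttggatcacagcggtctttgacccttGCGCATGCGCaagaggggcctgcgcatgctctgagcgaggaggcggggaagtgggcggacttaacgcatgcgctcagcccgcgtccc
Mrpl34: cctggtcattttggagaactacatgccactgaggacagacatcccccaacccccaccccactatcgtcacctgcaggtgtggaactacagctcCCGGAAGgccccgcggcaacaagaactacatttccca
Mrpl58: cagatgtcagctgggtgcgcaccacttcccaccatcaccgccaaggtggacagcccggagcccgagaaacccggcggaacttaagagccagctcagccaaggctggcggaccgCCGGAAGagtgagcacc
Mrpl36: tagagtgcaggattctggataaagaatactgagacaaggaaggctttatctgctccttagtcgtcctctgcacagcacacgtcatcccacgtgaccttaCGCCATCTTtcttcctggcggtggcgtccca
Mrpl12: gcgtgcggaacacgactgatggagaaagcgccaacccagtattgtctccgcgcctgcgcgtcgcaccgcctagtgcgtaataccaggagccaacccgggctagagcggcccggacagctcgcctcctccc
Mrps6: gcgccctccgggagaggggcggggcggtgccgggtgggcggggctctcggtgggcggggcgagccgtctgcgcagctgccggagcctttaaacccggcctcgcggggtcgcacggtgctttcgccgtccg

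Mrpl9 (chr3:94443206-94443335, plus strand) and Mrpl32 (chr13:14613038-14613167, minus strand) carried the NRF1 letters. Mrpl34 (chr8:71464796-71464925, plus strand) and Mrpl58 (chr11:115403622-115403751, plus strand) carried the ETS letters, and Mrpl36 (chr13:73330879-73331008, plus strand) the YY1 letters in reverse complement. Mrpl12 (chr11:120484507-120484636, plus strand) and Mrps6 (chr16:92058206-92058335, plus strand), the members with the largest fall among Mrpl genes and with the only rise, had none of the searched letters in this stretch, which says only that these letters are absent from it.

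The ETS letters stood in the windows of 26 of 69 members (37.7%), against 19.4% of the 10480 tested genes with a window and 9.93% of all 27025 genes with a window. The YY1 letters stood in 8 members (11.6%, against 3.39% of tested genes). The NRF1 letters stood in Mrpl9, Mrpl32 and Mrpl39 (4.35%, against 2.27%), and the receptor letters in no member, against 0.324% of tested genes. Among 70 genes for nuclear OXPHOS subunits, the ETS letters were found in 24.3%. Of members that fell in both comparisons below, 31.8% of the 22 with a window held the ETS letters. It was 40.6% of 32 for those that fell only against all benign samples, and 40% of 15 for those that fell in neither.

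Within 500 bases of the start, 23 of the 69 members (33.3%) had the start of another gene on the opposite strand, pointing away, against 17% of tested genes. Mrpl46 and Mrps11, a protein from each subunit, share such a start region, with 41 bases between the starts.
Mrpl46/Mrps11: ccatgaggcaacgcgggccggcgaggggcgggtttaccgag

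The sequence above lies at chr7:78783090-78783130 and is written on the strand of Mrps11. The pair fell together: Mrpl46 by 0.78 and Mrps11 by 0.68 on the log2 scale against all benign samples (SE 0.20 and 0.15, adjusted p = 0.0043 and 0.00208 by edgeR's quasi-likelihood test). Against benign samples 1, 2 and 5 they fell by 0.42 and 0.44 (adjusted p = 0.0791 and 0.0661), calls that were lost in 5 and 4 of the 9 fits with a sample left out. Their outermost annotated ends overlap on opposite strands, and although the library kit marks strand, whether the counting used it is not given in the sources used here, so reads near the shared start may not be told apart. Of the other members with a mitochondrial partner, Mrpl47 fell by 0.51 and Ndufb5, a Complex I subunit, by 1.04 against all benign samples (adjusted p = 0.0936 and 0.0113), and against benign samples 1, 2 and 5 neither was called, at 0.08 and -0.16 (adjusted p = 0.80 and 0.433). Mrpl43 fell by 0.73 against all benign samples and by 0.46 against benign samples 1, 2 and 5 (adjusted p = 0.00173 and 0.0298, edgeR). Twnk, the mitochondrial DNA helicase that starts across from it, was not called in the first comparison (0.09, SE 0.15) and rose by 0.43 in the second (SE 0.13, adjusted p = 0.0221). Mrps12 had log2 fold changes of 0.03 and 0.20 (adjusted p = 0.88 and 0.402), while Sars2, the mitochondrial seryl-tRNA synthetase, fell by 0.58 and 0.52 (adjusted p = 0.0159 and 0.09). Mrps27, at -0.32 against all benign samples, was not called, and its mitochondrial partner Ptcd2 fell by 0.60 (adjusted p = 0.00495, edgeR). Against benign samples 1, 2 and 5 Ptcd2 was at -0.26 (adjusted p = 0.13). Mrpl2 fell by 1.16 and 0.75 beside Klc4, a kinesin light chain, which rose by 0.79 and 0.75 (adjusted p = 9.42e-05 and 0.00119 for Klc4).

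Summed over the 49 Mrpl genes, expression was 1744, 1791, 2373, 3132, 2031 and 2632 CPM in benign samples 1 to 6. In tumors 1 to 6 it was 1721, 1323, 1392, 1564, 1697 and 1660 CPM. Every tumor thus lay below every benign sample, but tumor 1 was only narrowly below benign sample 1, and benign samples 3, 4 and 6 were the highest. The 29 Mrps genes summed to 967 to 1771 CPM in benign tissue (median 1229) and 788 to 1070 CPM in tumors (median 938), with overlap between the groups. All members together took 0.279% to 0.412% of the counts of a benign sample and 0.217% to 0.291% of those of a tumor. In bulk tissue, fewer cells of a type and less of an RNA per cell cannot be told apart.

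**Figure D1:**
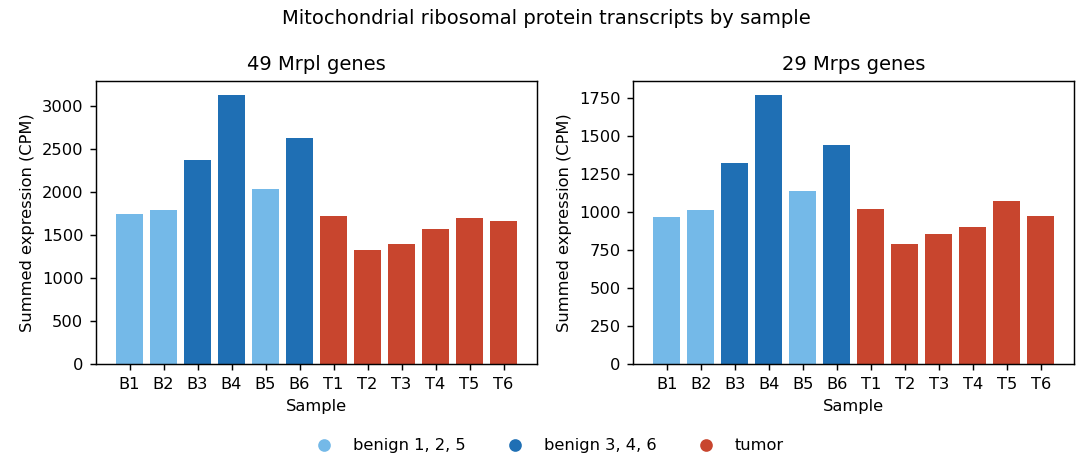
Summed expression (CPM, vertical axis from 0) of the 49 Mrpl genes (left) and the 29 Mrps genes (right) in benign samples B1 to B6 and tumors T1 to T6, 1 bar per sample. Benign samples 3, 4 and 6 (dark blue) are the highest in both panels, and benign samples 1 and 2 lie close to the highest tumors.

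Against all 6 benign samples, most mitochondrial ribosomal protein genes were lower in tumors. Of the 49 Mrpl genes, 40 fell and 0 rose at an adjusted p under 0.1, and of the 29 Mrps genes, 21 fell and 1 rose (edgeR's two-sided quasi-likelihood test, adjusted over the 13191 genes tested). At an unadjusted p under 0.05 the Mrpl genes also gave 0 rises, as did DESeq2 at the same threshold. Among all genes tested, 63% changed, 34.8% fell and 28.2% rose. The median log2 fold change was -0.56 for Mrpl and -0.55 for Mrps genes, against -0.06 for all genes tested. For 16 Mrpl and 6 Mrps genes every tumor lay below every benign sample, as it did for 21.2% of all genes tested, and for 0 members did every tumor lie above (14.7% of all genes). Leaving out tumor 2 or tumor 3 left 13 Mrps genes lower. Of the 61 members that fell, 40 kept the call whichever of the 12 samples was left out, a count not made over all genes tested.

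Against benign samples 1, 2 and 5 the difference was smaller. Here 17 Mrpl and 7 Mrps genes fell and 0 rose (0 also by DESeq2 and at an unadjusted p under 0.05), where 55.4% of the 13604 genes tested changed, 28.7% fell and 26.7% rose. The share of members that fell was therefore near that of all genes, while none was among the rises. Sorted by structure instead of symbol, 18 of 52 large subunit genes (34.6%) and 5 of 30 small subunit genes (16.7%) fell. These sets leave out Mrps36 and include the ribosomal proteins with other symbols described below. The median log2 fold change was -0.21 for Mrpl and -0.12 for Mrps genes, against 0.00 for all genes. All 24 of these members had also fallen against all 6 benign samples, and the other 37 had fallen in that comparison only. In 23 members every tumor lay below benign samples 1, 2 and 5 (25.4% of all genes), and in 0 members above them (18.7%). Without benign sample 5 the counts were 9 Mrpl and 4 Mrps genes, and without tumor 2 Mrpl13 was called higher (adjusted p = 0.0975). The median of the Mrps genes was -0.19 without tumor 1, -0.06 without tumor 2 and -0.04 without benign sample 5, and that of the Mrpl genes was -0.33 without benign sample 1.

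Both comparisons use the same tumors and share benign samples, so they are not independent of each other. A score of muscle markers and the level of Ucp1 were then added as covariates to the fit over all 12 samples. In it 14 members were lower, 10 of them Mrpl and 4 Mrps, and all 14 were among the 24. How many of all genes tested were lower in that fit was not counted. That fit uses the same samples too, so its overlap with the 24 is not independent. Fat, vascular, connective tissue and myoepithelial markers were also lower in tumors in both comparisons (8 of 8, 5 of 5, 5 of 5 and 6 of 6). Their part in the members' values was not tested.

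**Figure D2:**
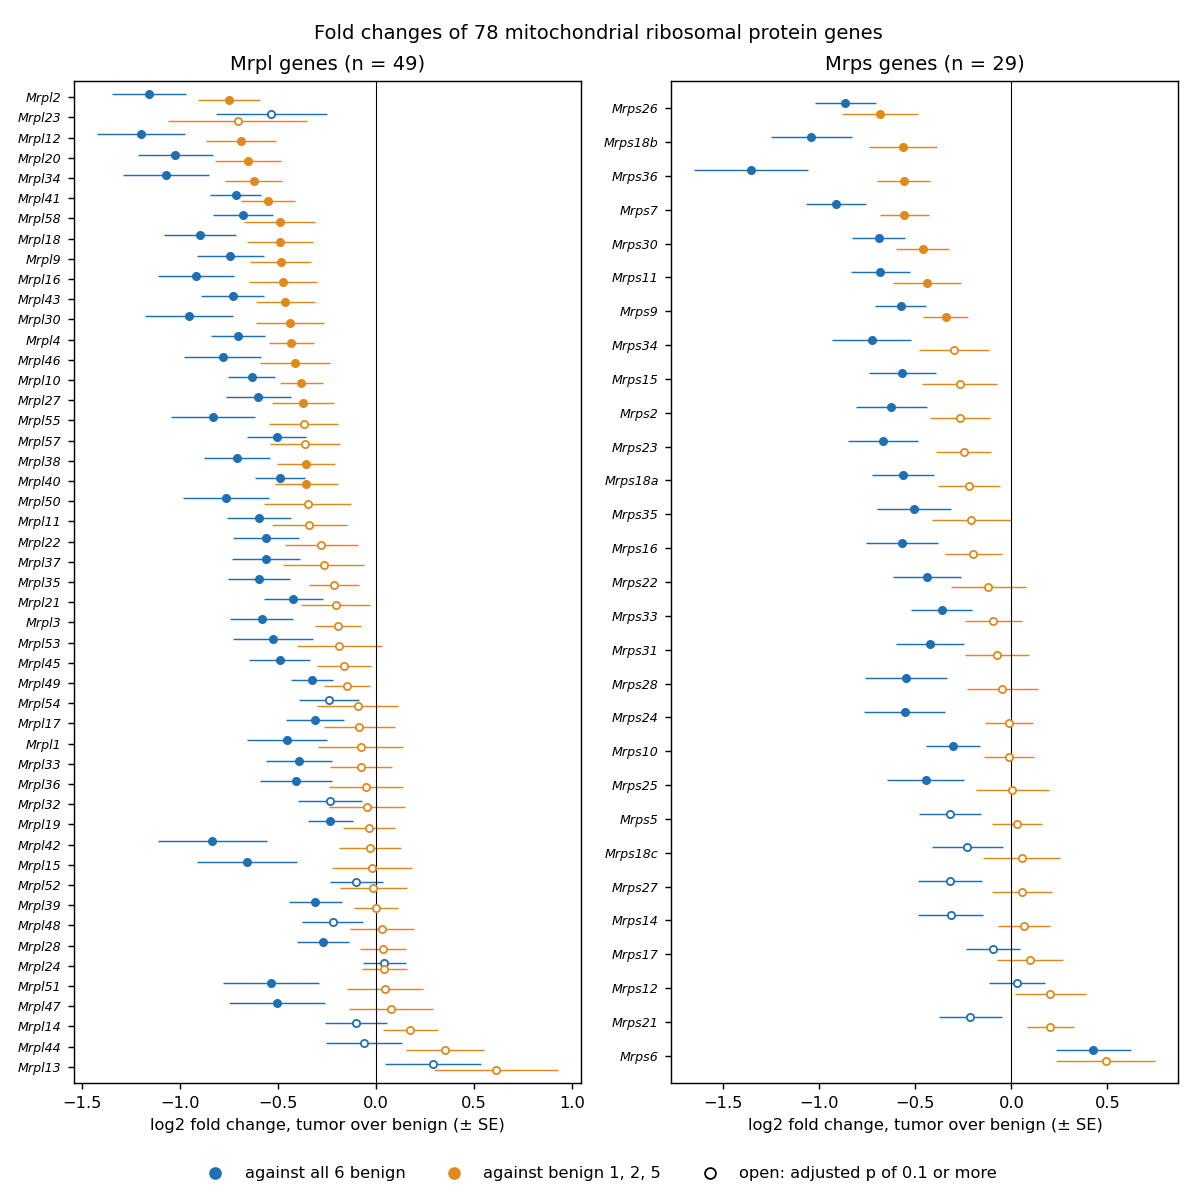
Log2 fold change, tumor over benign, with its standard error for each of the 49 Mrpl genes (left) and 29 Mrps genes (right), against all 6 benign samples (blue) and against benign samples 1, 2 and 5 (orange). Filled points passed an adjusted p of 0.1 by edgeR. Most blue points lie left of their orange ones, and Mrps6 holds the only filled point right of 0.

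Benign samples 3, 4 and 6 exceeded benign samples 1, 2 and 5 in the mean log2 CPM of 76 of 78 members, with a median difference of 0.52, and in 56 members (71.8%) without overlap, against 15% of all genes tested. The difference was largest for Mrpl42 (1.26), Mrps36 (1.18) and Mrpl15 (1.01). Mrpl24 (-0.10) and Mrpl23 (-0.41) were the exceptions. The same difference had a median of 1.09 over 84 OXPHOS subunits, -0.39 over 76 cytosolic ribosomal proteins and -0.03 over all genes tested. Members varied less among tumors than among all benign samples, with a median coefficient of variation of 15.8% in tumors, 24.6% in the 6 benign samples and 11.0% in benign samples 1, 2 and 5.

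The stalk of the large subunit recruits the translation factors. All 3 of its genes fell against all benign samples and 2 against benign samples 1, 2 and 5, where 34.8% and 28.7% of all genes tested fell. In all 3 every tumor lay below every benign sample, as it did for 21.2% of all genes tested. Mrpl12, which forms the flexible part of the stalk and lies at chr11:120484613-120489065 (GRCm38, GENCODE M21), was at 74.8, 106 and 180 CPM (lowest, median and highest) in benign tissue and at 36.4, 47.1 and 65.4 CPM in tumors. No tumor reached a benign sample. Its log2 fold change of -1.20 was the largest fall among Mrpl genes (SE 0.22, adjusted p = 0.000544, edgeR). Against benign samples 1, 2 and 5, at 74.8, 75.0 and 91.8 CPM, it was -0.69 (SE 0.18, adjusted p = 0.00971). Mrpl10, the base of the stalk, was at 65.1, 73.2 and 99.0 CPM in benign tissue and 42.6, 50.5 and 56.2 CPM in tumors, again without overlap, and fell by 0.64 and 0.38 in the 2 comparisons (adjusted p = 0.000601 and 0.0166, edgeR). Mrpl11, which binds beside it, ranged from 30.9 to 49.5 CPM in benign tissue and from 16.9 to 30.4 CPM in tumors. It fell by 0.60 against all benign samples (adjusted p = 0.00763), and against benign samples 1, 2 and 5 its log2 fold change of -0.34 did not pass (adjusted p = 0.17).

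Of the 21 other Mrpl genes with bacterial homologs, 18 (85.7%) fell against all benign samples and 8 (38.1%) against benign samples 1, 2 and 5. The median log2 fold changes were -0.60 and -0.21, and 34.8% and 28.7% of all genes tested fell. Mrpl2, a protein of the peptidyl transferase region, had 44.2, 53.7 and 84.4 CPM in benign tissue and 20.8, 27.4 and 31.2 CPM in tumors. The highest tumor stayed well below the lowest benign sample. It fell by 1.16 (SE 0.19, adjusted p = 0.000179) and, against benign samples 1, 2 and 5 at 44.5, 44.2 and 48.9 CPM, by 0.75 (SE 0.16, adjusted p = 0.00327, edgeR), the largest called fall of any member in that comparison. Mrpl20, whose bacterial relative is needed to build the large subunit, ran from 43.2 to 89.1 CPM in benign tissue and from 22.6 to 38.1 CPM in tumors and fell by 1.03 and 0.65 (adjusted p = 0.00053 and 0.01). Mrpl34, the small basic protein whose promoter with the ETS letters is shown above, was at 23.3, 30.2 and 60.6 CPM in benign tissue and 14, 15.5 and 18.9 CPM in tumors. It fell by 1.07 and 0.63 (adjusted p = 0.00103 and 0.00591).

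Mrpl33 was one of the most abundant Mrpl transcripts per length, at 88.1 CPM per kilobase over all samples, and fell by 0.40 against all benign samples (adjusted p = 0.0625). That call was lost without benign sample 4 or 6 or any of tumors 2 to 6, with an adjusted p up to 0.20, and against benign samples 1, 2 and 5 the log2 fold change was -0.08 (adjusted p = 0.715). Mrpl28 fell by 0.27 against all benign samples (adjusted p = 0.0953), whereas against benign samples 1, 2 and 5 its log2 fold change was 0.03 (adjusted p = 0.832). Mrpl13, at 33.9 to 61.5 CPM in benign tissue and 39.3 to 100.2 CPM in tumors, had the highest positive values among Mrpl genes, 0.29 and 0.61, and passed in neither comparison (adjusted p = 0.332 and 0.139).

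The central protuberance, at the top of the large subunit, fell in 4 of 5 genes in both comparisons (median -0.71 and -0.36). Among all genes tested, 34.8% fell in the first comparison and 28.7% in the second. Mrpl18 was at 38.7, 60.0 and 71.6 CPM in benign tissue and 23.7, 29.9 and 36.7 CPM in tumors, with no overlap, and fell by 0.90 and 0.49 (adjusted p = 0.00101 and 0.0362, edgeR). Mrpl38, Mrpl40 and Mrpl46 fell by 0.71, 0.49 and 0.78 against all benign samples. Their falls of 0.36, 0.36 and 0.42 against benign samples 1, 2 and 5 were each lost in 5 to 7 of the 9 fits with a sample left out, and that of Mrpl18 without benign sample 5 (adjusted p = 0.177). Mrpl48 was at 32.1, 41.8 and 59.7 CPM in benign tissue and 27.8, 39.6 and 44.2 CPM in tumors, and its log2 fold changes of -0.22 and 0.03 did not pass (adjusted p = 0.238 and 0.905).

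The rim of the exit tunnel, where the new chain meets the inner membrane, showed the smallest medians of the large subunit groups. Of its 8 genes, 5 fell against all benign samples and 0 against benign samples 1, 2 and 5 (median -0.40 and -0.04, with an unadjusted p under 0.05 in 0 of them in the second comparison). The shares of all genes tested that fell were 34.8% and 28.7%. Mrpl45, which tethers the ribosome to the inner membrane, was at 32.1, 42.1 and 59.0 CPM in benign tissue and 24.8, 30.2 and 35.4 CPM in tumors. Its range in tumors reached into that of benign samples 1, 2 and 5, at 32.1, 33.2 and 39.1 CPM. It fell by 0.49 against all benign samples (adjusted p = 0.0151), and the second log2 fold change was -0.16 (adjusted p = 0.359). Mrpl47 fell by 0.51 against all benign samples (adjusted p = 0.0936) and had a log2 fold change of 0.08 against benign samples 1, 2 and 5 (adjusted p = 0.80). Mrpl44 had values of -0.06 and 0.35 (adjusted p = 0.808 and 0.176). Mrpl23 had only 1.21 to 4.45 CPM per sample, and its values of -0.53 and -0.71 had standard errors of 0.28 and 0.36 and did not pass (adjusted p = 0.125 and 0.129).

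The 12 remaining Mrpl genes are mostly proteins added in mitochondria, although Mrpl58, grouped with them here, has a bacterial relative outside the ribosome. Of these, 10 (83.3%) fell against all benign samples, where 34.8% of all genes tested fell. Against benign samples 1, 2 and 5, 3 fell (25%, against 28.7% of all genes), namely Mrpl41, Mrpl43 and Mrpl58. Mrpl58, a peptidyl-tRNA hydrolase built into the ribosome that frees stalled chains, was at 33.5, 41.0 and 49 CPM in benign tissue and 16.1, 26.3 and 29.9 CPM in tumors. The groups did not overlap, and it fell by 0.68 and 0.49 (adjusted p = 0.00213 and 0.0485, edgeR), the second call being lost without benign sample 1 (adjusted p = 0.152). Mrpl41 fell by 0.72 and 0.55 (adjusted p = 0.000429 and 0.00806). Mrpl42 shows the contrast between the comparisons most plainly. It was at 107, 148 and 138 CPM in benign samples 3, 4 and 6 but at 47.4, 54.1 and 61.7 CPM in benign samples 1, 2 and 5, and tumors ran from 41.3 to 61.7 CPM. It fell by 0.84 against all benign samples (SE 0.28, adjusted p = 0.0209), and its log2 fold change against benign samples 1, 2 and 5 was -0.03 (SE 0.16, adjusted p = 0.89). In the fit with muscle and Ucp1 covariates its value turned to 0.11. Mrpl51 changed from a fall of 0.54 (adjusted p = 0.0799) to a log2 fold change of 0.04 (adjusted p = 0.869).

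**Figure D3:**
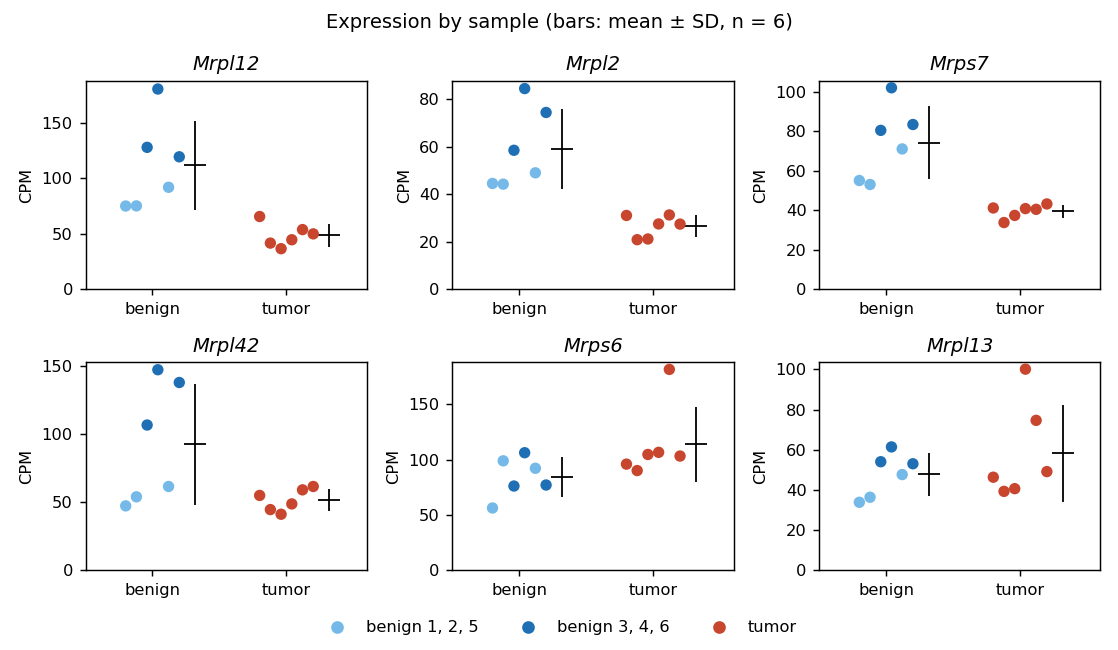
Expression (CPM, axes from 0) of 6 members in each benign sample (light blue for samples 1, 2 and 5, dark blue for 3, 4 and 6) and each tumor (red), with the mean and SD of the 6 samples of a group. Mrpl12, Mrpl2 and Mrps7 are separated, Mrpl42 is high only in benign samples 3, 4 and 6, tumor 5 is the highest for Mrps6 and tumor 4 for Mrpl13.

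In the small subunit, the head swivels as tRNAs move through the ribosome. Of its 5 genes with bacterial homologs, 4 fell against all benign samples and 2 against benign samples 1, 2 and 5. Of all genes tested, 34.8% and 28.7% did. Mrps7, an assembly protein of the head, was at 53.0, 75.8 and 102 CPM in benign tissue and 33.7, 40.6 and 43.1 CPM in tumors. All tumors lay below all benign samples. It fell by 0.91 (SE 0.16, adjusted p = 0.000268) and, against benign samples 1, 2 and 5 at 55.0, 53.0 and 71.0 CPM, by 0.56 (SE 0.13, adjusted p = 0.00546, edgeR). Mrps9 fell by 0.58 and 0.34 (adjusted p = 0.00241 and 0.0364), the second call being lost without benign sample 2 or 5 (adjusted p up to 0.15).

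The body, which carries the decoding centre, fell in 3 of 6 genes against all benign samples (median -0.44), where 34.8% of all genes tested fell. Against benign samples 1, 2 and 5, 0 of 6 fell (median -0.01, and 0 also at an unadjusted p under 0.05), where 28.7% of all genes did. Mrps12, the decoding centre protein whose bacterial relative is known from streptomycin resistance, was at 18.2, 23.6 and 28.3 CPM in benign tissue and 19.7, 23 and 29.3 CPM in tumors. The groups lay over each other, with log2 fold changes of 0.03 and 0.20 (SE 0.15 and 0.19, adjusted p = 0.88 and 0.402).

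The platform held the member that went the other way. Of its 5 genes with bacterial homologs, 2 fell and 1 rose against all benign samples, and 1 fell against benign samples 1, 2 and 5. Among all genes tested, 34.8% fell and 28.2% rose in the first comparison, and 28.7% fell in the second. Mrps6 was at 56.3, 98.9, 76.1, 106, 92.1 and 77.0 CPM in benign samples 1 to 6 and at 95.9, 90.1, 105, 107, 181 and 103 CPM in tumors 1 to 6. Tumor 5 stood far above the rest, and the other tumors overlapped with benign samples 2, 4 and 5. Mrps6 rose by 0.43 on the log2 scale against all benign samples (SE 0.19, adjusted p = 0.0757, edgeR). Without tumor 5 the value was 0.31 (adjusted p = 0.0923), and the call was lost without benign sample 3 or 6 (adjusted p up to 0.129). Against benign samples 1, 2 and 5 its log2 fold change was 0.49 (SE 0.26, adjusted p = 0.143). Per length it was among the most abundant members, at 99.8 CPM per kilobase in benign tissue and 134 in tumors. Mrps21, another platform protein, was the most abundant member per length, at 124 CPM per kilobase over all samples, and its log2 fold changes of -0.21 and 0.20 did not pass (adjusted p = 0.287 and 0.196).

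The ratio of the summed Mrpl to the summed Mrps symbols was taken with and without Mrps6. The ratio of summed Mrpl to summed Mrps CPM was 1.77 to 1.83 in benign tissue and 1.59 to 1.74 in tumors, with no overlap. Without Mrps6 the ratio was 1.88 to 1.96 in benign tissue and 1.86 to 1.97 in tumors, so the groups then overlapped. Mrps6 was picked for its values in these same data, no other member was left out in this way, and its part in the ratio was not tested. The Mrps sum also holds Mrps18a, Mrps30 and Mrps36, which lie elsewhere by structure.

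The 10 Mrps genes grouped as added in mitochondria include Mrps18b, a paralog of a bacterial protein. Of these, 9 (90%) fell against all benign samples, where 34.8% of all genes tested fell. Against benign samples 1, 2 and 5, Mrps18b and Mrps26 fell (2 of 10, 20%, against 28.7% of all genes). Mrps26 was at 34.3, 39.5 and 46.3 CPM in benign tissue and 14.7, 23.4 and 27.4 CPM in tumors, with a clear gap between the groups, and fell by 0.86 and 0.69 (adjusted p = 0.000488 and 0.0167, edgeR). Mrps25 fell by 0.45 against all benign samples (adjusted p = 0.0749), and its log2 fold change against benign samples 1, 2 and 5 was 0.01 (adjusted p = 0.984). The 4 calls of Mrpl28, Mrpl47, Mrpl51 and Mrps25, the called members whose direction differed between the comparisons, were each lost without benign sample 3, 4 or 6 and without most single tumors, with adjusted p up to 0.294. With the muscle and Ucp1 covariates all 4 had positive values.

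The 3 paralogs of the bacterial S18 protein differed in how they moved. Mrps18b was at 32.8, 47.1 and 70.9 CPM in benign tissue and 17.1, 23.4 and 31.7 CPM in tumors, without overlap, and fell by 1.04 and 0.56 (SE 0.21 and 0.18, adjusted p = 0.000957 and 0.0247), the second call being lost without benign sample 5 (adjusted p = 0.104). Mrps18a, which sits in the large subunit in spite of its symbol, fell by 0.57 against all benign samples (SE 0.16, adjusted p = 0.00886) and had a log2 fold change of -0.22 against benign samples 1, 2 and 5 (SE 0.16, adjusted p = 0.292). Mrps18c had log2 fold changes of -0.23 and 0.05 (SE 0.19 and 0.20, adjusted p = 0.312 and 0.848). The differences between the paralogs were not tested.

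A pair of other Mrps symbols belongs elsewhere by structure. Mrps30, a large subunit protein, was between 28.1 and 29.5 CPM in 5 tumors and at 40.4 CPM in tumor 5, against 41.2 to 65.2 CPM in benign tissue. Even that tumor was below the lowest benign sample, and the gene fell by 0.69 and 0.46 (adjusted p = 0.000965 and 0.0206). Mrps36, now known as a component of the 2-oxoglutarate dehydrogenase complex of the citric acid cycle, had the largest fall of all members. It was at 32.6, 27.6 and 30.3 CPM in benign samples 1, 2 and 5, at 47.2, 96.6 and 70.8 CPM in benign samples 3, 4 and 6, and at 17, 19.2 and 25.1 CPM (lowest, median and highest) in tumors. The log2 fold change was -1.36 (SE 0.30, adjusted p = 0.00167) against all benign samples and -0.56 (SE 0.14, adjusted p = 0.00821, edgeR) against benign samples 1, 2 and 5.

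Taking both comparisons and every fit with a sample left out, 12 members fell throughout: Mrpl2, Mrpl4, Mrpl10, Mrpl12, Mrpl20, Mrpl34, Mrpl41, Mrpl43, Mrps7, Mrps26, Mrps30 and Mrps36. All but Mrps36 were also lower in the fit with muscle and Ucp1 covariates, with log2 fold changes from -0.65 for Mrpl2 to -0.36 for Mrps30. Mrps36 is not a ribosomal protein, as given above. How many of all genes tested fall in every such fit was not counted. Against benign samples 1, 2 and 5, 30.8% of members and 28.7% of all genes tested fell.

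The 5 mitochondrial ribosomal proteins with other symbols had a median log2 fold change of -0.47 against all benign samples, where that of the members was -0.55. Of all genes tested, 34.8% fell in that comparison and 28.7% against benign samples 1, 2 and 5. Against all benign samples Dap3, Ptcd3, Chchd1 and Aurkaip1 fell by 0.32, 0.47, 0.54 and 0.48, and Gadd45gip1 had a log2 fold change of -0.22 (adjusted p = 0.0217, 0.0409, 0.0276, 0.0312 and 0.127, edgeR). Without tumor 2 the calls of Dap3, Ptcd3 and Aurkaip1 were lost (adjusted p up to 0.137), and those of Dap3 and Ptcd3 also without tumor 3 or 4. Against benign samples 1, 2 and 5 0 of the 5 passed, with values from -0.21 to -0.02 and no unadjusted p under 0.05.

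Values of the factors that work on the ribosome differed from gene to gene. Of 13, 6 fell (46.2%) and 1 rose against all benign samples, where 34.8% and 28.2% of all genes tested did. Against benign samples 1, 2 and 5, 5 fell (38.5%) and 2 rose, where 28.7% and 26.7% of all genes did. Tufm, the elongation factor that delivers tRNAs, was at 93.6, 132 and 230 CPM in benign tissue and 61.1, 69.8 and 90.8 CPM in tumors and fell by 0.92 and 0.41 (adjusted p = 0.00273 and 0.0545). Tsfm, its nucleotide exchange factor, fell by 0.96 and 0.61 (adjusted p = 0.00242 and 0.0347), and Gfm1, the factor for translocation, by 1.16 and 0.47 (adjusted p = 0.00154 and 0.0354, edgeR). The second calls of all 3 were lost without benign sample 5 (adjusted p = 0.204, 0.155 and 0.139). In all 3 every tumor lay below every benign sample, as it did for 21.2% of all genes tested. Taco1, the activator of translation of a Complex IV subunit, fell by 1.40 and 0.79 (adjusted p = 0.000299 and 0.00704).

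Guf1, the back-translocating elongation factor, was at 34.2, 39.5 and 46.3 CPM in benign tissue and 46.7, 59.4 and 81.2 CPM in tumors. It rose by 0.63 and 0.73 (SE 0.14 and 0.17, adjusted p = 0.00167 and 0.00606, edgeR), with all tumors above all benign samples. Of the initiation factors, Mtif2 had a log2 fold change of 0.12 against all benign samples (adjusted p = 0.517) and rose by 0.34 against benign samples 1, 2 and 5 (adjusted p = 0.0656), a call lost without any of those 3 or without tumor 1 or 6. Mtif3 had values of -0.24 and 0.02 (adjusted p = 0.214 and 0.935).

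Of 26 assembly factors of the ribosome, 10 fell and 2 rose against all benign samples (34.8% and 28.2% of all genes tested), and 4 fell and 4 rose against benign samples 1, 2 and 5 (28.7% and 26.7% of all genes). Rpusd3, a pseudouridine synthase, fell by 1.44 against benign samples 1, 2 and 5, and Mpv17l2, a membrane protein that supports assembly, by 0.84 (adjusted p = 0.00154 and 0.00124, edgeR). The GTPase gene Gtpbp10 rose by 0.57 and 0.68 (adjusted p = 0.00419 and 0.0119). Of 4 genes grouped here under insertion of new proteins into the inner membrane, Oxa1l and Cox18 are the insertases. All 4 fell against all benign samples, where 34.8% of all genes tested fell. The call of Oxa1l, with a fall of 0.24 (adjusted p = 0.0573, edgeR), was lost in 8 of the 12 fits with a sample left out (adjusted p up to 0.293). Letm1, Cox18 and Tmem177 also fell against benign samples 1, 2 and 5, by 1.15, 0.95 and 0.66, the call of Tmem177 being lost without benign sample 2 (adjusted p = 0.106). Of 13 genes for mitochondrial transcription and RNA handling, 7 fell in the first comparison and 3 in the second, where 34.8% and 28.7% of all genes fell.

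The nuclear OXPHOS subunits, which join the products of this ribosome in the respiratory complexes, fell in 74 of 84 genes against all benign samples (median -1.03). Against benign samples 1, 2 and 5, 38 of 84 fell and 3 rose (median -0.29). Of all genes tested, 34.8% fell in the first comparison and 28.7% in the second. The cytosolic ribosomal proteins had 3 lower and 9 higher of 76 (median 0.09) in the first comparison and 4 lower and 1 higher (median -0.07) in the second. The summed OXPHOS level was 3.73 to 6.97 times the summed level of the members in benign tissue, and 3.48 to 4.15 times in tumors. In benign samples 1, 2 and 5 it was 3.73 to 4.29 times, so the overlap with tumors lay there.

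**Figure D4:**
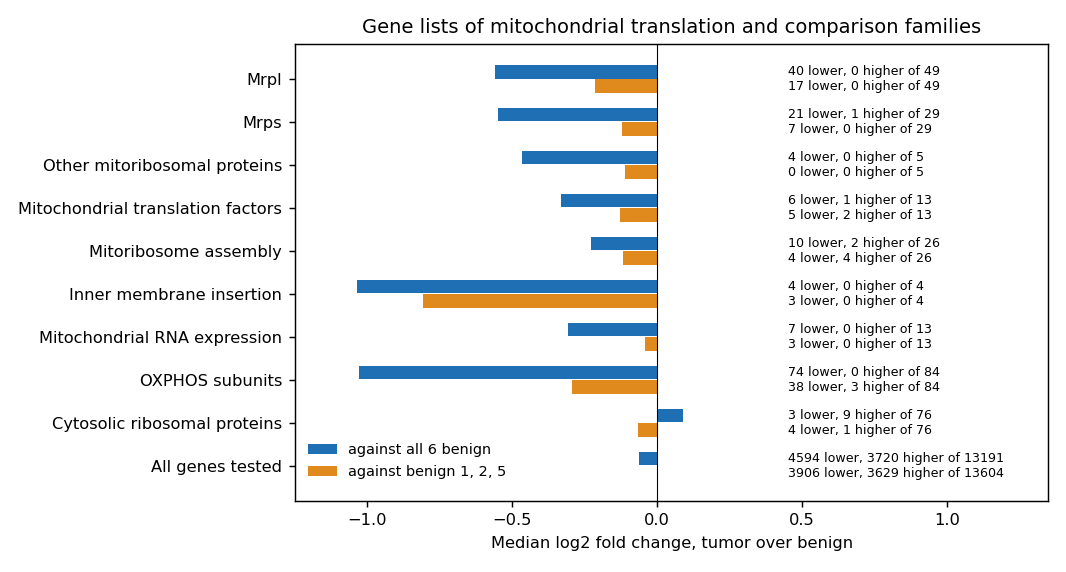
Median log2 fold change, tumor over benign, of the members, of other gene lists of mitochondrial translation and of the comparison families, against all 6 benign samples (blue) and benign samples 1, 2 and 5 (orange). The text at the right counts the genes lower and higher at an adjusted p under 0.1, and the orange bars are shorter than the blue ones in each list whose bars point left in both.

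Genes of whole chromosomes differed in single tumors, and the members on them are given here beside those shifts. In tumor 5, the 821 tested genes of chromosome 4 had a median of -0.81 on the log2 scale relative to the median of the other 5 tumors, and 88.7% of them were negative. The 4 members there were lower in that tumor too, Mrpl50 by 0.94, Mrpl37 by 0.90, Mrps15 by 0.64 and Mrpl20 by 0.33. Mrpl50 was at 17.5 CPM in tumor 5 and 31.1 to 37.1 CPM in the others, and its fall against all benign samples was 0.77 with tumor 5 and 0.58 without it (adjusted p = 0.00952 and 0.02). Mrpl37 and Mrps15 fell by 0.56 and 0.57 with tumor 5 and by 0.39 and 0.40 without it, and kept the call.

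In the same tumor the 520 genes of chromosome 15 had a median of 0.54, and Mrpl13, the only member there, a value of 0.68. In tumor 1 the 815 genes of chromosome 5 had a median of 0.48, and Mrpl1, Mrpl33, Mrps17 and Mrps18c were higher by 0.65, 0.54, 0.65 and 0.72. Members elsewhere in the genome ran up to 0.65 (Mrpl15) in tumor 1 and 0.81 (Mrps6) in tumor 5 as well. The part of the chromosome-wide shifts in the members' values was not tested. Mrpl13 was also high in tumor 4, at 100.2 CPM and 1.11 above the median of the other tumors, while the 37 tested genes within 5 Mb of it had a median of 0.01 in that tumor. Mrps6, at 0.81 in tumor 5, lay on chromosome 16, where 57 neighbours within 5 Mb had a median of 0.17. With tumors 1 and 5 left out together, 35 Mrpl and 20 Mrps genes fell against all benign samples and 20 and 10 against benign samples 1, 2 and 5, and Mrps6 was not called.

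**Figure D5:**
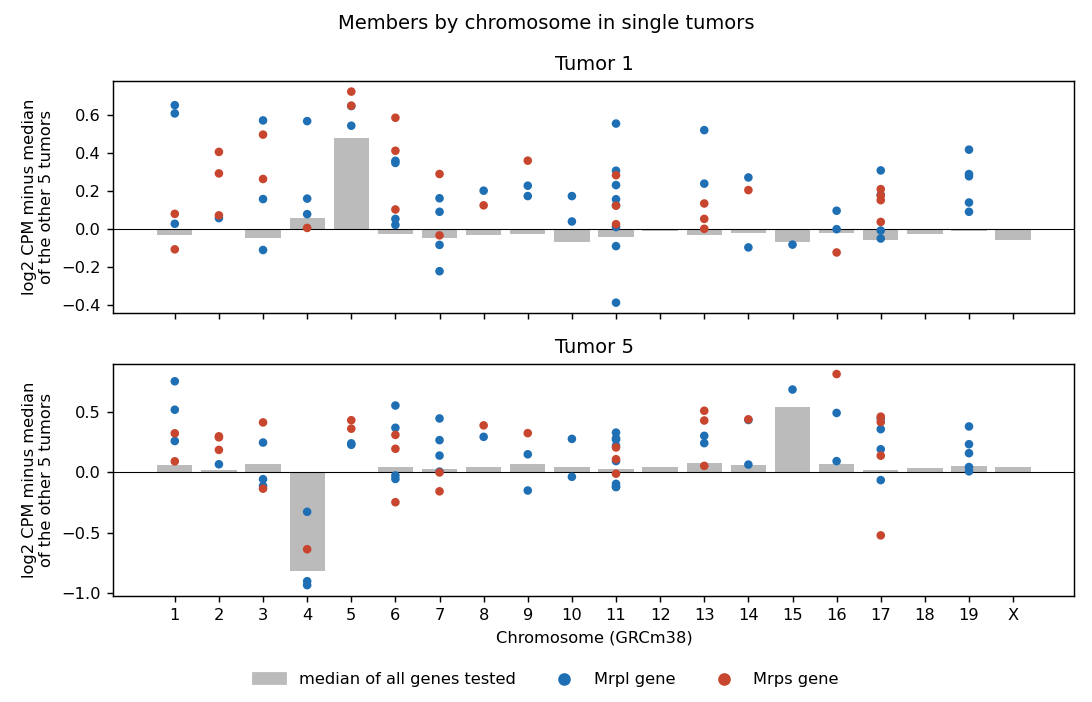
Log2 CPM of each member in tumor 1 (top) and tumor 5 (bottom) minus the median of the other 5 tumors, by chromosome, for Mrpl (blue) and Mrps (red) genes. Grey bars are the median of all tested genes of the chromosome; chromosome 5 stands out in tumor 1 and chromosomes 4 and 15 in tumor 5.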

How the data were processed

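The values the authors made with Salmon are estimated counts, not normalized and summed to genes, in a single table of 16411 genes and 12 samples, of which 0 columns were left unmapped. Libraries were poly A selected and made with a directional kit. The submitters' processing notes name Trim Galore, Salmon, DESeq2 and mm10, whereas the Salmon version, the annotation and the strand setting are not given in the sources used here. In every row the counts sum to at least 5. Estimated counts were taken as whole numbers, with any fraction dropped. They were filtered (filterByExpr, minimum count 10, minimum total 15) and scaled by TMM. A quasi-likelihood model of tumor against benign tissue was fitted with edgeR 4.0.16 (R 4.3.3), first over all samples and then without benign samples 3, 4 and 6. Two-sided p-values were adjusted by Benjamini-Hochberg over all genes tested, with calls at 0.1. They set the difference between groups against the spread between these samples. Tumors and benign tissue came from different mice, and whether each of the 6 tumors came from a mouse of its own is not given in the sources used here. The fits were tested on simulated data. No pair of samples agreed within sampling noise.

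DESeq2 1.42.0, other scalings and filters, a threshold of 0.05, a replicate block, tissue covariates and leaving out each sample were the alternatives. Total counts set the counting error. The members and lists were chosen with earlier results of these data known. Genes named are, for each subunit and comparison, the 3 largest called rises and falls, the 2 most abundant per length, called members that changed direction, and fixed genes of the stalk, tunnel exit, decoding centre, S18 paralogs, Mrps30, Mrps36, the other symbols and Tufm, Tsfm, Gfm1, Mtif2 and Mtif3. The others named were chosen after their values were seen. Protein sequences were not used here.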

Additional observations from a re-analysis of the deposited data

Results flagged for a closer look

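In 208 sets of 6 samples, a sample was compared with the others of its group. The sets covered each member, the other genes of mitochondrial translation named in the text, and the Mrpl and Mrps sums and their ratio. They also covered the neighbouring genes Twnk, Sars2, Ndufb5 and Klc4, but not Ptcd2. In 13 of them a sample stood apart, where chance gives about 1 in 20. In tumor 5, Mrps6 was at 181 CPM against 90.1 to 107 CPM in the other tumors, Mrps30 at 40.4 CPM against 28.1 to 29.5 CPM, Mrpl14 at 51.1 CPM against 35.03 to 38.9 CPM, Mrpl40 at 33.2 CPM against 21.5 to 25.8 CPM, and Tmem177 at 11.9 CPM against 7.005 to 8.23 CPM. In the same tumor Mrps18a, at 21.4 CPM, lay below the 29.4 to 33.0 CPM of the others, and Mrpl50, at 17.5 CPM, below 31.1 to 37.1 CPM. In tumor 6, Mrpl35 was at 27.3 CPM against 20.5 to 22.7 CPM. In benign sample 4, the sample with the highest sums of Mrpl and Mrps genes, Mrpl34 was at 60.6 CPM against 23.3 to 34.4 CPM in the other benign samples, Tsfm at 45.6 CPM against 20.2 to 28.6 CPM, Mpv17l2 at 46.0 CPM against 27.2 to 33.6 CPM, and Oxa1l at 125.2 CPM against 95.0 to 102 CPM. In benign sample 1, Mrpl23 was at 4.45 CPM against 1.95 to 2.75 CPM.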

How the results depend on the processing

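DESeq2, the other scalings and the other filters left the counts of members lower within 1.5 times those reported. With a score of muscle markers and the level of Ucp1 as covariates, 10 Mrpl genes were lower and 1 higher (Mrpl13), with a median log2 fold change of -0.20, and 4 Mrps genes were lower and 1 higher (Mrps6), with a median of -0.059. In that fit Mrpl28 (0.050), Mrpl42 (0.11), Mrpl47 (0.18), Mrpl51 (0.20), Mrps25 (0.078), Ptcd3 (0.045) and Chchd1 (0.017) turned positive. The cause was not tested, and how many of all genes tested were lower or higher in that fit was not counted. No Mrps gene was higher (0) at a threshold of 0.05 or with tumors 1 and 5 left out together, a setting chosen after seeing the data. Leaving out each sample against all benign samples gave 27 to 40 Mrpl genes lower and 0 higher (median -0.59 to -0.43) and 13 to 23 Mrps genes lower and 0 to 1 higher (median -0.59 to -0.38). Against benign samples 1, 2 and 5 it gave 9 to 18 Mrpl genes lower and 0 to 1 higher (median -0.33 to -0.16) and 4 to 9 Mrps genes lower and 0 higher (median -0.19 to -0.04). Samples that share a replicate number did not pair (correlations of their deviations -0.12 to 0.10). A replicate block gave 31 Mrpl genes lower and 18 Mrps genes lower and 1 higher, and against benign samples 1, 2 and 5, with tumors 1, 2 and 5 only, 2 and 2. Mrpl23, at 9 counts in its lowest sample, is limited by depth.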
